A study of Mus musculus with 56 samples.

Results

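The comparison described here is the first 4 h with food in mice that were fed by day. Daytime-restricted feeding (DRF) gave female C57BL/6J mice access to chow during the 12 h of light, and visceral adipose tissue (VAT) was collected at zeitgeber time 0 (ZT0, lights on) and at ZT4. The members are the 4 DRF libraries of ZT4 and the 4 DRF libraries of ZT0, chosen by their labels alone, 8 of the 56 libraries of the series. The labels name no engineered allele; the mice, aged 9 weeks, had followed the regimen for 7 days, which came after a week of ad libitum feeding. The other 48 libraries come from the remaining DRF time points (ZT8 to ZT24) and from nighttime-restricted feeding (NRF, food in the dark), with 4 mice in each of the 14 groups. Whether the ZT0 mice were taken before or after food was given is not stated in the sources used here. Each group holds different mice, so the change from ZT0 to ZT4 is a difference between mice and not a change followed within an animal.

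White fat stores triglyceride after a meal and releases fatty acids between meals. Insulin is the main signal of the fed state: it promotes glucose uptake and lipid synthesis, restrains lipolysis, and keeps FoxO transcription factors out of the nucleus. Sterol synthesis genes answer to the SREBP transcription factors, chaperone genes to heat shock factors, and the circadian clock runs in fat cells as in other tissues, with feeding and light as its timing cues.

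The deposited values could be turned back into reads, and levels are given below as CPM, the read count of a gene scaled to the library size built into the deposited values. The 8 libraries held 34269188 to 38699577 recovered reads each. A CPM compares libraries for the same gene, not genes with each other, because it takes no account of gene length. Differences are means of log2(CPM + 1) at DRF ZT4 minus DRF ZT0 with their standard error (SE), from limma fitted over all 56 libraries with n = 4 mice in each group. Where another setting is named, such as a library left out, the fit and n are those of that setting. A gene was called at a Benjamini-Hochberg adjusted p under 0.05 over 15425 tested genes. The added 1 makes the differences of low genes smaller than their fold changes.

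DRF ZT0 replicate 4 stood apart from the other 7 libraries. The 11 uterine and oviduct epithelium markers that could be read summed to 7655.5 CPM in it and to between 15.4 and 24.1 CPM in the others, with Ltf at 4229 CPM, Sprr2f at 1564 CPM and Prom1 at 905 CPM. Its 8 adipocyte markers summed to 25611 CPM, against 41769 to 53830 CPM in the other ZT0 mice and 42883 to 47061 CPM at ZT4. Smooth muscle markers (1026 CPM against 193 to 392 CPM) and mesothelium markers (961 CPM against 215 to 465 CPM) were also highest in it. Counts of genes and list members called from ZT0 to ZT4 are therefore given again without this library, and the part that other tissue in it has in single results was not tested beyond that. In bulk tissue, fewer cells of a type cannot be told apart from less RNA per cell. At most 2 members of any of the 16 lists of cell type markers were called by limma (Lep of the adipocyte list among them), and of 6 skeletal muscle markers, with a median difference of 1.25, 0 were called (0 also at an unadjusted p under 0.05). Macrophage markers summed to 787 to 1214 CPM at ZT0 and 772 to 945 CPM at ZT4.

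**Figure D1:**
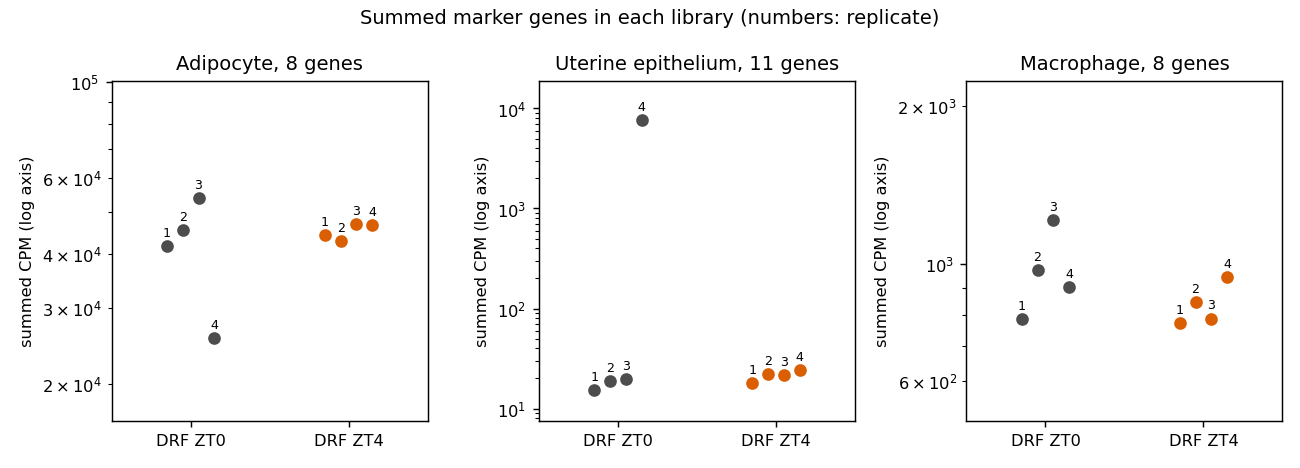
Summed CPM (log axis) of the adipocyte, uterine epithelium and macrophage marker genes in each of the 8 libraries, with the replicate number beside each point. DRF ZT0 replicate 4 lies at 7655.5 CPM for uterine epithelium while the other 7 libraries lie between 15.4 and 24.1 CPM, and it has the lowest adipocyte sum.

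At ZT4, 2594 genes were higher and 2112 were lower than at ZT0, 16.8% and 13.7% of the genes tested and 30.5% together. Most changes were small: 171 of the rises and 158 of the falls reached 1 on the log2 scale. All 4 ZT4 libraries lay above or below all 4 ZT0 libraries for 27.4% of the tested genes. Without DRF ZT0 replicate 4, 1785 genes were higher and 1491 lower, and 2975 of the 4706 called genes were called the same way. The counts in each direction depend on the scale between libraries. Dividing by the total of recovered reads moved the median over all genes from 0.0027 to -0.14 and changed the split to 1235 higher and 3099 lower, so modest differences are to be read relative to that shift.

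The 15 largest rises were headed by Spry3, Mvd and Ppp1r3b. Spry3, a Sprouty protein of the family that restrains receptor tyrosine kinase signalling, lay between 0.93 and 1.5 CPM in the 4 ZT0 mice and between 13.5 and 18.2 CPM in the 4 ZT4 mice, a 12.8-fold difference of the means (2.92 ± 0.32 SE on the log2 scale, limma adjusted p = 1.6e-08). The gene sits on the scaffold GL456233.1 of the assembly used here. Ppp1r3b, which targets protein phosphatase 1 to glycogen, was at 62.6, 279, 146 and 124 CPM at ZT0 and at 942, 678, 974 and 794 CPM at ZT4 (2.64 ± 0.58, limma adjusted p = 0.00060). The ZT0 mice of Ppp1r3b were far apart. Its groups did not overlap, which the choice of these 15 genes required. Ccnd1, which encodes cyclin D1 and lies at chr7:144929931-144939925 (GRCm38), was at 17.4, 23.2, 21.3 and 13.7 CPM at ZT0 and at 76.5, 76.6, 81.2 and 64.1 CPM at ZT4 (1.95 ± 0.23, limma adjusted p = 7.1e-08). Osgin1, an oxidative stress response gene, rose from 10.8 ± 3.42 to 54.9 ± 7.52 CPM (SD, n = 4; limma adjusted p = 6.1e-10).

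The other large rises were Hephl1, a ferroxidase, Smtnl2, Tsku, a secreted protein, Tmem79, Mtfp1, a mitochondrial fission protein, and Chsy1, a chondroitin synthase, with differences of 1.86 to 2.49. All 15 rises remained called in the same direction under each alternative setting that tested them (24, and 23 for Spry3, which a filter at a mean of 5 CPM left out), including the omission of each of the 8 libraries in turn. A call without DRF ZT0 replicate 4 was a rule for choosing these genes, so that setting could not fail. The choice of large, non-overlapping differences also favours a kept call in the other settings.

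**Figure D2:**
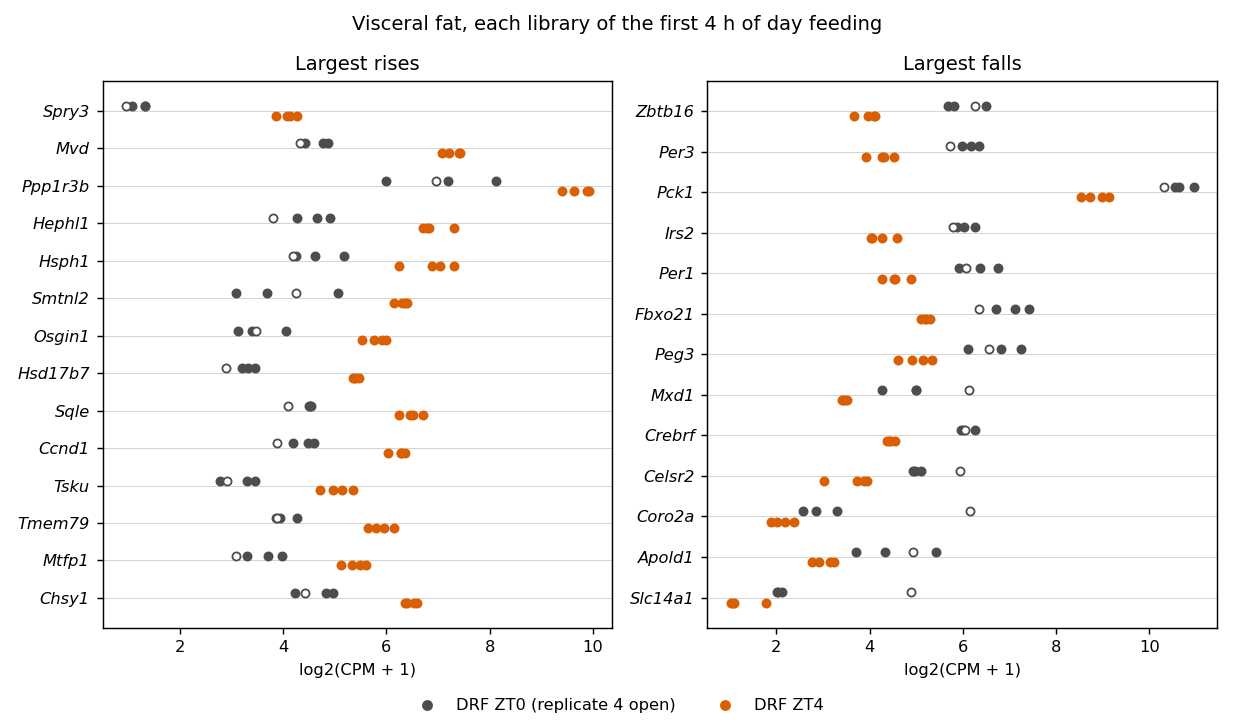
Each library's log2(CPM + 1) for 14 of the 15 largest rises and 13 of the 15 largest falls that met the rule for named genes; grey points are DRF ZT0 (the open one is replicate 4) and orange points DRF ZT4. The orange and grey points of each gene do not overlap, which the rule required, and replicate 4 lies far above the other ZT0 mice for Coro2a and Slc14a1.

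Genes of cholesterol synthesis and uptake rose together. Of 24 tested members, 18 were higher and 0 lower, beside 16.8% and 13.7% of all genes. The counts were 14 and 0 without DRF ZT0 replicate 4, and 15 were higher with the total of recovered reads as the scale. The median difference was 1.04, against 0.0027 over all genes tested. They span the pathway from its early to its late steps. Hmgcs1, which makes HMG-CoA in the cytosol, was at 176, 198, 162 and 146 CPM at ZT0 and at 359, 446, 438 and 467 CPM at ZT4 (1.32 ± 0.21, limma adjusted p = 9.5e-06). Mvd, which forms isopentenyl diphosphate, was at 26.5, 28.2, 20.4 and 19.2 CPM and then at 148, 135, 172 and 168 CPM (2.68 ± 0.40, limma adjusted p = 2.7e-06), the steepest rise of the list. Every ZT4 mouse lay above every ZT0 mouse for both genes.

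Further along the pathway, Sqle, the squalene epoxidase, rose from 20.4 ± 2.97 to 89.0 ± 11.7 CPM (SD, n = 4; limma adjusted p = 9.6e-05). Hsd17b7, a late sterol reductase, rose from 8.38 ± 1.48 to 41.3 ± 1.59 CPM (SD, n = 4; limma adjusted p = 2.2e-06). Every ZT4 mouse lay above every ZT0 mouse for Hsd17b7.

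The promoters of these genes show what the members share in sequence. Of the 24 tested members, 17 had a promoter in the RefSeq table (GRCm38.p6), read here as the 250 bases before the annotated start. CCAAT on either strand was found in 16 of these 17, against 40% of the 11201 tested genes with a promoter. The sterol element TCACNCCAC on either strand was found in 1 of 17, Hmgcs1, against 1.21% of all. The promoter of Hmgcs1 (chr13:119690101-119690350, plus strand) and that of Mvd (chr8:122443423-122443672, minus strand) are shown because these genes carry the list's only sterol element match and its largest rise; capitals mark the sterol element in Hmgcs1 and the CCAAT boxes in Mvd, 5′ to 3′ on the gene's strand. Here and below, a gene with several promoters was counted if any of them matched, and the first matching promoter is the one shown. A match is a description of letters and was not tested for binding.
Hmgcs1: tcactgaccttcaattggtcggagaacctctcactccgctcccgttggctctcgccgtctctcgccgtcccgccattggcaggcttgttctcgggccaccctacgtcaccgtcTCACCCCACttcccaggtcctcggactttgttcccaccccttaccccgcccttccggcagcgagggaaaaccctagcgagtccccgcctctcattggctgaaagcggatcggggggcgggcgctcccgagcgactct
Mvd: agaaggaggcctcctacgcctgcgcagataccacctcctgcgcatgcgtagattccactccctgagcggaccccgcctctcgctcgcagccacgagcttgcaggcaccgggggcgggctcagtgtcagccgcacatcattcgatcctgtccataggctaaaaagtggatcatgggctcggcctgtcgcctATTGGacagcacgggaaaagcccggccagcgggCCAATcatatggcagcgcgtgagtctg

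De novo lipogenesis itself was less clear. All 15 tested members had a positive difference, with a median of 0.69, but 3 were called, a share near the 16.8% of all genes that rose. The count was 1 without DRF ZT0 replicate 4, 0 under quantile normalization, 7 with the 8 libraries alone, 8 with array weights and 5 on the deposited values. Fasn, the fatty acid synthase, was at 24880, 21229, 25267 and 14272 CPM at ZT0 and at 33223, 27749, 38110 and 32946 CPM at ZT4. The groups of Fasn did not overlap, yet the difference of 0.65 ± 0.60 did not pass the test (limma adjusted p = 0.43). The spread in this test is pooled over the 14 groups. Fasn was not called in any of the 24 other settings either, the 8 libraries alone among them. The 3 called genes were Srebf1, which encodes SREBP-1 (0.89, limma adjusted p = 0.013, and 0.052 without replicate 4), Elovl5, an elongase (0.57, limma adjusted p = 0.0094), and Fads1, a desaturase (0.44, limma adjusted p = 0.017), whose call was lost in 8 of 24 settings, among them the omission of DRF ZT0 replicate 1 or 4 or DRF ZT4 replicate 3. The call of Elovl5 was lost with the total of recovered reads as the scale, under quantile normalization and with voom weights. Counts could not be recovered for Scd1 and Scd2. On the deposited scale, where 1 unit has no fixed fold, Scd2 was at 75.5, 70.1, 70.8 and 64.0 at ZT0 and at 84.5, 85.4, 86.9 and 88.1 at ZT4, without overlap.

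Of 12 tested genes of triglyceride synthesis and glyceroneogenesis, 4 rose and 1 fell (4 and 1 without DRF ZT0 replicate 4; 8 and 0 on the deposited values, 9 and 1 with array weights, 7 and 1 with the 28 DRF libraries), beside 16.8% and 13.7% of all genes. Agpat2, which makes phosphatidic acid, went from 848, 893, 1212 and 621 CPM to 2209, 2008, 2580 and 2304 CPM (1.38 ± 0.32, limma adjusted p = 0.0011). Gpam, the first acyltransferase of the pathway, and Lpin1, a phosphatidic acid phosphatase, rose by 0.95 and 1.07 (limma adjusted p = 0.0016 and 0.0035). The member that fell was Pck1, the enzyme of glyceroneogenesis in fat (chr2:173153048-173159273, GRCm38). Pck1 was at 2002, 1594, 1512 and 1274 CPM at ZT0 and at 371, 567, 421 and 509 CPM at ZT4 (-1.77 ± 0.63, limma adjusted p = 0.030), and this call was lost in 5 of the 24 settings: on the deposited values and without DRF ZT4 replicate 1, 3 or 4 or DRF ZT0 replicate 1.

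Among genes for heat shock proteins of the cytosol and mitochondria and the cold response, 10 of 15 rose and 1 fell, with a median of 0.55. This stands beside 16.8% and 13.7% of all genes. The counts were 9 and 1 without DRF ZT0 replicate 4, and 6 and 1 in a fit of the 8 libraries alone. Hsph1, a nucleotide exchange factor for HSP70 proteins (chr5:149614287-149636376, GRCm38), was at 18, 35.1, 23.4 and 17.2 CPM at ZT0 and at 130, 74.7, 117 and 157 CPM at ZT4 (2.31 ± 0.30, limma adjusted p = 2.9e-07). Hspa8, the constitutive HSP70, was at 403, 648, 630 and 593 CPM and then at 1438, 1032, 1335 and 1480 CPM (1.23 ± 0.20, limma adjusted p = 1.2e-05). Replicate 2 was the lowest ZT4 mouse for both genes. Chordc1, an HSP90 cochaperone, rose by 1.22. The gene that fell was Cirbp, the cold-inducible RNA-binding protein, at 58.4, 36.3, 38.6 and 42.4 CPM and then at 16.2, 22.2, 16.6 and 14.6 CPM (-1.28 ± 0.20, limma adjusted p = 8.5e-06). Rbm3, also a cold-inducible member, was not called (-0.18, limma adjusted p = 0.30). The stress-inducible Hspa1a (0.39, limma adjusted p = 0.22) and Hspa1b (0.03, limma adjusted p = 0.94) were not called with all 8 libraries; they are near-identical copies that share reads, and Hspa1b was at 66.0 CPM in DRF ZT0 replicate 4 against 8.79 to 16 CPM in the other ZT0 mice. Without that library the differences were 0.69 and 0.63 and both were called (limma adjusted p = 0.029 and 0.0066).

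The heat shock element GAANNTTC, which reads alike on both strands, was found in 6 of the 11 list members with a promoter, against 6.09% of the 11201 genes. The 6 members were Hspa1a, Hspa1b, Hspb1, Dnaja1, Hspe1 and Hspd1. Near-identical copies such as Hspa1a and Hspa1b, or neighbouring genes, may share a match, which was not tested, so the 6 are not to be read as independent. Dnaja1, an HSP40 protein, and Hspd1, the mitochondrial HSP60, are shown as members with a match that rose (1.1 and 0.54); both were chosen for display after their values were seen, and the call of Hspd1 is lost without DRF ZT0 replicate 4 (limma adjusted p = 0.077). Capitals mark the match in the promoters of Dnaja1 (chr4:40722218-40722467, plus strand) and Hspd1 (chr1:55087933-55088182, minus strand), 124 and 139 bases before the start. No match lies in the 250 bases of Hsph1 or Chordc1.
Dnaja1: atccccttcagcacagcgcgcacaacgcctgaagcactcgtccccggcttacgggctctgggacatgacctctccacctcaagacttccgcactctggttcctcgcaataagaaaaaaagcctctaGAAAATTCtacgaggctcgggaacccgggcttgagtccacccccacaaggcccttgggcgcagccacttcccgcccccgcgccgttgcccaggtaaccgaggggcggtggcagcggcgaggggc
Hspd1: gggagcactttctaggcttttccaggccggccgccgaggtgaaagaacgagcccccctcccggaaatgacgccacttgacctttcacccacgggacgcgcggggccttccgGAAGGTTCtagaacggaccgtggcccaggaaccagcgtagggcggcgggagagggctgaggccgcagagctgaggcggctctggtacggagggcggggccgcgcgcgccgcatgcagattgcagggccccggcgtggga

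Folding factors of the endoplasmic reticulum moved in the same direction. Of 18 members, 12 rose and 0 fell, beside 16.8% and 13.7% of all genes, with a median of 0.40 (14 and 0 without DRF ZT0 replicate 4). When the total of recovered reads set the scale, or with voom weights, 10 rose and 1 fell. Hspa5, the HSP70 of the endoplasmic reticulum also called BiP, was at 238, 289, 264 and 346 CPM at ZT0 and at 550, 545, 561 and 683 CPM at ZT4 (1.05 ± 0.12, limma adjusted p = 2.6e-08). Sdf2l1 (1.09), Creld2 (0.84) and Manf (0.74) were the other large rises. Of the stress transducers and degradation factors in the list, Xbp1, Herpud1, Sel1l and Syvn1 lay between -0.03 and 0.09 and were not called. These 4 were picked out after their values were seen. Xbp1 lay at 0.26 without DRF ZT0 replicate 4 (limma adjusted p = 0.23) and Herpud1 at 0.26 against ZT24 (limma adjusted p = 0.10).

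Among ribosome biogenesis factors 23 of 29 rose and 0 fell, beside 16.8% and 13.7% of all genes, with a median of 0.51. The counts were 22 and 0 without DRF ZT0 replicate 4, and 17 and 0 with the total of recovered reads as the scale. The rises were moderate and tight. Bysl, needed for the small subunit, was at 21, 23.1, 20.8 and 14.3 CPM and then at 41.7, 41.0, 48.9 and 48.1 CPM (1.16 ± 0.18, limma adjusted p = 4.4e-06). Rrp12 and Heatr1, both nucleolar processing factors, rose by 1.06 and 0.96, and Nop2, an rRNA methyltransferase, by 0.97. In the amino acid response list, 5 of 21 rose and 1 fell (4 and 0 without DRF ZT0 replicate 4), a share near the 30.5% called over all genes: Psph, the last enzyme of serine synthesis (1.24), the transcription factors Atf5 (0.89) and Atf4 (0.73), and the transporter subunit Slc3a2 (0.80) were higher, as was Asns (0.52), whose call is lost without DRF ZT0 replicate 4 (limma adjusted p = 0.099). Stc2 was lower at -1.19, with an adjusted p of 0.054 without that replicate.

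**Figure D3:**
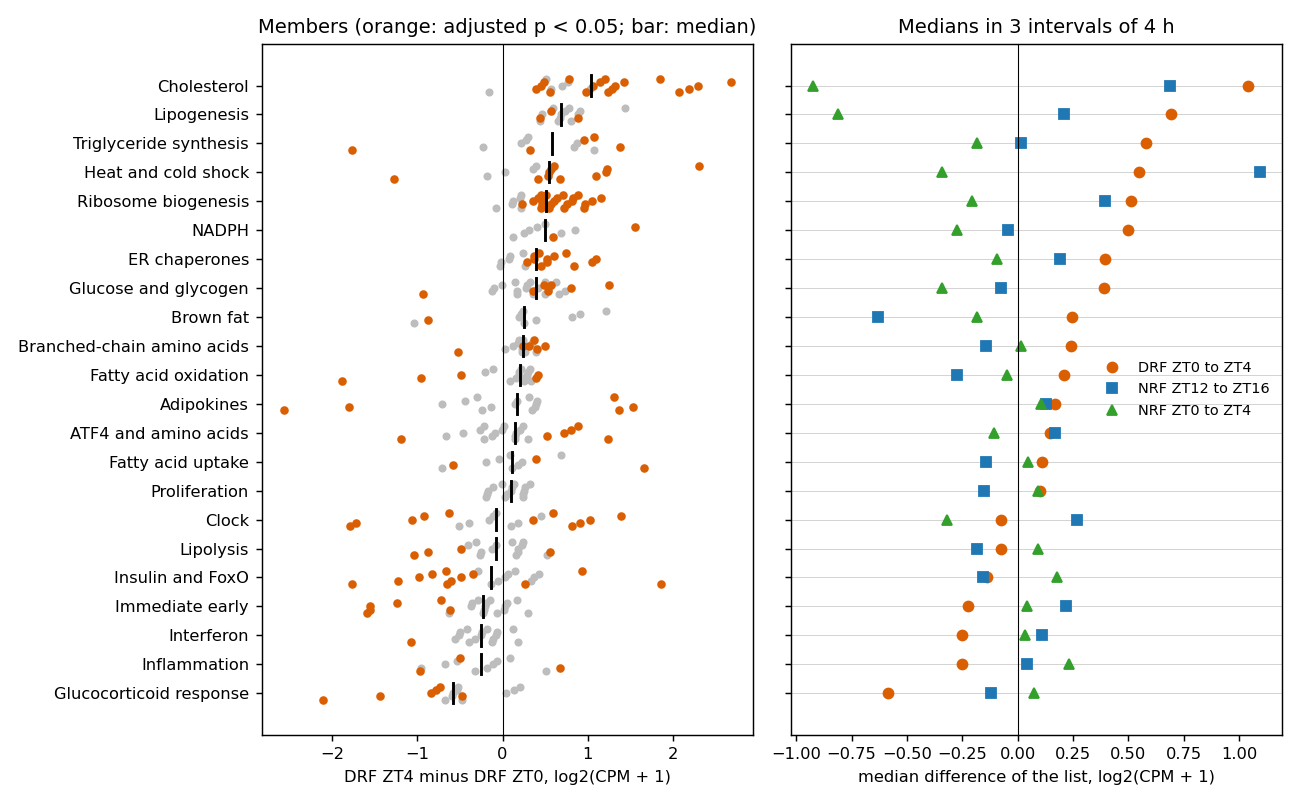
Left, the difference from DRF ZT0 to ZT4 of each tested member of the 22 gene lists (log2 scale; orange, called; bar, median of the list); right, the list medians over 3 intervals of 4 h, from DRF ZT0 to ZT4, NRF ZT12 to ZT16 and NRF ZT0 to ZT4. Cholesterol genes have the highest median by day feeding at 1.04 and lie at -0.92 over the same clock hours under NRF.

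Of 21 genes that encode parts of insulin signalling or respond to FoxO factors, 9 fell and 3 rose, beside 13.7% and 16.8% of all genes. The counts were 6 and 2 without DRF ZT0 replicate 4, and 5 fell without DRF ZT4 replicate 3. On the deposited values 5 fell and 6 rose, so the balance of this list turns with the scale. Irs2, an insulin receptor substrate that FoxO induces in fasting, was at 64.6, 75.7, 58.1 and 54.6 CPM at ZT0 and at 18.2, 23.2, 15.5 and 15.2 CPM at ZT4 (-1.76 ± 0.27, limma adjusted p = 5.5e-06). Txnip, an inhibitor of glucose uptake, went from 871, 676, 786 and 855 CPM to 386, 342, 309 and 326 CPM (-1.22 ± 0.21, limma adjusted p = 2.0e-05). Irs1, the sister of Irs2, was at 25.7 to 38.5 CPM at ZT0 and 28.2 to 32.6 CPM at ZT4 and was not called (limma adjusted p = 0.87). The 3 rises were Bcl6, a repressor, from 22, 22.2, 15.9 and 27.2 CPM to 75.1, 79.7, 70.8 and 98.5 CPM (1.86 ± 0.41, limma adjusted p = 0.00057), Akt2 (0.93), the main AKT kinase of insulin action in fat, and Insr (0.26), the insulin receptor, whose call is lost without DRF ZT0 replicate 4 (limma adjusted p = 0.084). Akt2 and Insr were named after their values were seen.

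Of 15 glucocorticoid-responsive genes, 6 fell and 0 rose, beside 13.7% and 16.8% of all genes, with the lowest median of the 22 lists, -0.59. The counts were 5 and 0 without DRF ZT0 replicate 4, and 3 fell without DRF ZT0 replicate 2. They were 10 and 0 with the total of recovered reads as the scale, and 3 lower and 1 higher on the deposited values. Zbtb16, a transcription factor induced by glucocorticoids, showed the largest of the 15 named falls: 89.5, 50.5, 55.6 and 75.9 CPM at ZT0 and 11.7, 16.2, 14.7 and 16 CPM at ZT4 (-2.11 ± 0.41, limma adjusted p = 0.00015). Cebpd fell by 1.44 with all libraries and by 1.02 without replicate 4, in which it was at 82.5 CPM against 22.6 to 26.8 CPM in the other ZT0 mice; against ZT24 it lay at -0.50 and was not called (limma adjusted p = 0.20). Fkbp5, a standard readout of the glucocorticoid receptor, was at 57.5, 51.8, 23.9 and 23.8 CPM at ZT0 and at 20.5 to 27.2 CPM at ZT4 and was not called (limma adjusted p = 0.20); its ZT0 mice fell into a high and a low pair.

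The calls of immediate early genes, which respond within minutes to stimulation, depended on the starting group. Of 21 members, 6 were lower and 0 higher at ZT4 than at ZT0 (4 and 1 without DRF ZT0 replicate 4), a share near the 30.5% called over all genes, but against the 4 DRF mice of ZT24, the same hour a day later, 0 were lower and 4 higher. Nr4a1 was at 10.4, 21.7, 58.7 and 42.9 CPM at ZT0 and at 8.06, 13.8, 7.46 and 6.96 CPM at ZT4 (-1.56 ± 0.41, limma adjusted p = 0.0035), whereas its difference from ZT24 was 0.97 (limma adjusted p = 0.083). Egr3 and Ier3 fell by 1.55 and 1.59 against ZT0 and lay at 0.46 and 0.55 against ZT24 (limma adjusted p = 0.32 and 0.41), and Apold1, an early response gene of endothelium and 1 of the 15 named falls, fell by 1.58 against ZT0 and lay at 0.24 against ZT24 (limma adjusted p = 0.61). The ZT0 levels of these genes were lowest in replicate 1 and spread widely, from 2.16 to 22.1 CPM for Egr3 and from 5.67 to 205 CPM for Ier3. The highest Ier3 level was that of replicate 4, without which its difference was -0.77 and not called (limma adjusted p = 0.11). Over all genes, ZT4 differed from ZT24 with 1986 higher and 1481 lower, and ZT24 itself differed from ZT0 in 22 genes by limma (1766 at an unadjusted p under 0.05).

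Among the other large falls, Crebrf, a regulator of CREB3 proteins, was at 61.4 to 75.4 CPM at ZT0 and at 19.9 to 22.3 CPM at ZT4, with a SD of 1.05 CPM among the ZT4 mice (-1.61 ± 0.20, limma adjusted p = 1.9e-07). Fbxo21 (-1.70), a ubiquitin ligase subunit, Peg3 (-1.68), an imprinted zinc finger gene, Mxd1 (-1.64), a partner of MAX, and Celsr2 (-1.60), a cadherin, also fell, and were lower than at ZT24 too. Coro2a and Slc14a1 rested in size on DRF ZT0 replicate 4: Coro2a was at 69.975 CPM there against 4.91 to 8.79 CPM in the other ZT0 mice, and without it the differences were -0.78 and -0.82 in place of -1.60 and -1.53. Against ZT24 neither Coro2a nor Slc14a1 was called (limma adjusted p = 0.26 and 0.15).

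Of 17 lipolysis genes, 1 rose and 3 fell, a share below but near the 30.5% called over all genes. The counts were 0 and 5 without DRF ZT0 replicate 4, and 1 and 1 without DRF ZT0 replicate 2 or 3 or DRF ZT4 replicate 3 or 4. With the total of recovered reads as the scale they were 1 and 6, with array weights 1 and 8, and on the deposited values 3 and 1. The falls were Adrb3, the adrenergic receptor of fat, from 313, 326, 346 and 231 CPM to 166, 164, 157 and 165 CPM (-0.88 ± 0.31, limma adjusted p = 0.028), Hcar2, a Gi-coupled receptor that restrains lipolysis (-1.04), and Pde3b (-0.49), the phosphodiesterase through which insulin restrains lipolysis. The call of Adrb3 was lost in 6 of 24 settings, among them the omission of DRF ZT0 replicate 1, 2 or 3 or DRF ZT4 replicate 3 or 4, and that of Pde3b in 9, among them the omission of any library but DRF ZT0 replicate 4. Pnpla2, the first triglyceride lipase, was at 1951 to 3079 CPM at ZT0 and 2737 to 3424 CPM at ZT4 (0.16 ± 0.19, limma adjusted p = 0.56). Lipe, the hormone-sensitive lipase, was at 1650, 1489, 1577 and 905 CPM at ZT0 and at 929, 1028, 1082 and 1113 CPM at ZT4; it was not called with all libraries (limma adjusted p = 0.10) and was lower at -0.60 without replicate 4, its lowest ZT0 mouse (limma adjusted p = 0.019).

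Of 11 lipoprotein lipase and uptake genes, 2 rose and 1 fell, again near the 30.5% of all genes, and 1 and 3 without DRF ZT0 replicate 4. Angptl8, a feeding-induced inhibitor partner of lipoprotein lipase, was at 31.8, 308, 265 and 132 CPM at ZT0 and at 440, 364, 461 and 480 CPM at ZT4 (1.66 ± 0.63, limma adjusted p = 0.042), a call lost in 12 of 24 settings, among them the omission of DRF ZT0 replicate 1 or 4 or of any ZT4 library. Lpl itself lay between 10815 and 11671 CPM at ZT4 and between 5827 and 12376 CPM at ZT0 (limma adjusted p = 0.60). Of 24 genes of glucose use, 6 rose and 1 fell, a share near the 30.5% called over all genes. The counts were 2 and 1 without DRF ZT0 replicate 4. Without DRF ZT4 replicate 3 or 4, 2 rose, and 13 rose with array weights or on the deposited values. Hk2, the insulin-induced hexokinase, rose from 118, 239, 116 and 144 CPM to 338, 334, 374 and 364 CPM (1.25 ± 0.38, limma adjusted p = 0.011). Rpia, of the pentose phosphate pathway, rose by 1.56 ± 0.23, and 2 of 9 genes of NADPH supply rose, against 16.8% of all genes. The rises were 2 without DRF ZT0 replicate 4 and 4 without DRF ZT0 replicate 3 or DRF ZT4 replicate 2. They were 6 with array weights or on the deposited values, and 1 with ZT24 in place of ZT0.

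Of 17 secreted factors, 3 rose and 2 fell (2 and 3 without DRF ZT0 replicate 4; 5 rises without DRF ZT0 replicate 3), a share near the 30.5% called over all genes. Lep, which encodes leptin, was at 840, 1012, 509 and 432 CPM at ZT0 and at 1347, 1834, 1312 and 2154 CPM at ZT4 (1.3 ± 0.41, limma adjusted p = 0.014), and did not pass without DRF ZT0 replicate 4 (1.1, limma adjusted p = 0.066) or without DRF ZT4 replicate 4. Apln, for apelin, rose by 1.53 and Fgf21 by 1.37, the latter from 0.71 to 2.45 CPM at ZT0 to 3.55 to 5.36 CPM at ZT4. Adipoq was at 1544 to 3292 CPM at ZT0 and 2582 to 3057 CPM at ZT4 (limma adjusted p = 0.56). Lcn2, called as a fall, was at 2666 CPM in DRF ZT0 replicate 4 and at 1.09 to 2.34 CPM in the other 7 libraries, and its difference without that library was -0.05 (limma adjusted p = 0.94). Of 18 fatty acid oxidation genes, 2 rose and 3 fell (0 and 2 without replicate 4), and of 18 branched-chain amino acid genes, 5 rose and 1 fell (0 and 1), both shares near the 30.5% of all genes. These counts moved with single libraries: the rises were 4 and 9 without DRF ZT0 replicate 3 and 0 without DRF ZT4 replicate 3, and 9 and 10 on the deposited values. Of 10 brown-fat genes 0 were higher and 1 lower, of 12 inflammatory genes 1 and 2, and of 16 interferon-stimulated genes 0 and 1, beside the 30.5% of all genes. Of 15 proliferation genes 0 were called by limma, and 0 had an unadjusted p under 0.05. Without replicate 4 the counts were 1 and 1 in the first 3 of these lists and 0 and 0 in the last. In contrast, 5 interferon-stimulated genes were lower without DRF ZT0 replicate 1 and 4 inflammatory genes without DRF ZT0 replicate 3.

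The clock list was divided, with 6 of 19 genes higher and 5 lower (5 and 5 without DRF ZT0 replicate 4), beside 16.8% and 13.7% of all genes. Among the repressors, Per3 (chr4:151003652-151044665, GRCm38) was at 70.8, 80.0, 62.4 and 51.9 CPM at ZT0 and at 21.9, 19, 18.3 and 14.2 CPM at ZT4 (-1.79 ± 0.21, limma adjusted p = 7.1e-08). Per1 was at 81.4, 108, 59.7 and 65.7 CPM and then at 18.3, 22.4, 21.9 and 28.8 CPM (-1.72 ± 0.26, limma adjusted p = 3.3e-06). Against ZT24 Per1 lay at -0.96 and was called there too (limma adjusted p = 0.0051). For both Period genes every ZT4 mouse lay below every ZT0 mouse, while Per2 was not called (0.19, limma adjusted p = 0.67). Cry1 rose by 1.02; Per2, Cry1 and Clock were named after their values were seen. The activators Arntl, at 14.2 to 18.9 CPM and then 28.1 to 35.5 CPM (0.91 ± 0.22, limma adjusted p = 0.0014), and Clock (0.59) rose.

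The output factors moved in both directions. Nfil3, a repressor at D-box sites, rose from 13.3, 24.6, 18.8 and 23.5 CPM to 55.9, 44.4, 54.3 and 58.3 CPM (1.39 ± 0.26, limma adjusted p = 7.9e-05). Dbp, an activator at the same sites, fell by 1.06 ± 0.27 (limma adjusted p = 0.0030) but lay at -0.64 against ZT24 and was not called there (limma adjusted p = 0.086), and Hlf, also an activator there, rose by 0.81. Nr1d1, for the repressor REV-ERB alpha (chr11:98767932-98775333, GRCm38), was at 43.7, 54.0, 47.2 and 54.4 CPM at ZT0 and at 36.7, 68.4, 46.2 and 37.4 CPM at ZT4 and was not called (limma adjusted p = 0.73).

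The E-box CACGTG was found in the promoters of 5 of 16 clock genes (9.65% of all 11201) and the D-box TTATGTAA, on either strand, in 1 of 16, Per3 (0.661% of all). The promoters of the Period genes that fell are shown with these matches in capitals. Per1 (chr11:69098699-69098948, plus strand) has an E-box 166 bases before the start, and Per3 (chr4:151044666-151044915, minus strand) has D-box matches 205 and 158 bases before it.
Per1: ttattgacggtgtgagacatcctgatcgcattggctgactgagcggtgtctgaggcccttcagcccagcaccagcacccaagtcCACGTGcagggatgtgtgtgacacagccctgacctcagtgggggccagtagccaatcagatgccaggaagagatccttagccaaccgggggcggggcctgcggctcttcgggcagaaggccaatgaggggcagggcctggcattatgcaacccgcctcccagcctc
Per3: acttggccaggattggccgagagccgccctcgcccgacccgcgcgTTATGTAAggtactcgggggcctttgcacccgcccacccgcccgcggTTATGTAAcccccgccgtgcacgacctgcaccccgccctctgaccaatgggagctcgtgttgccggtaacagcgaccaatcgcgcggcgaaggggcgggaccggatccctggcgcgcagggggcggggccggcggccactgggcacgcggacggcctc

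Over the same clock hours, NRF mice lose their food at the start of the light phase. From NRF ZT0 to ZT4 67 genes were higher and 109 lower, 1.14% of those tested, and 2382 passed an unadjusted p under 0.05. The change under DRF differed from it by the interaction term for 4586 genes, 29.7% of those tested (2594 higher and 1992 lower; 2224 and 1718 without DRF ZT0 replicate 4). Mvd, for example, went from 96.8 ± 55.7 CPM at NRF ZT0 to 26.6 ± 16.5 CPM at NRF ZT4 (SD, n = 4), while its DRF means rose from 23.6 to 156 CPM. Of the lists, 23 of 24 cholesterol genes, 22 of 29 ribosome biogenesis factors, 14 of 19 clock genes and 12 of 15 heat and cold shock genes differed between the regimens over these hours.

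**Figure D4:**
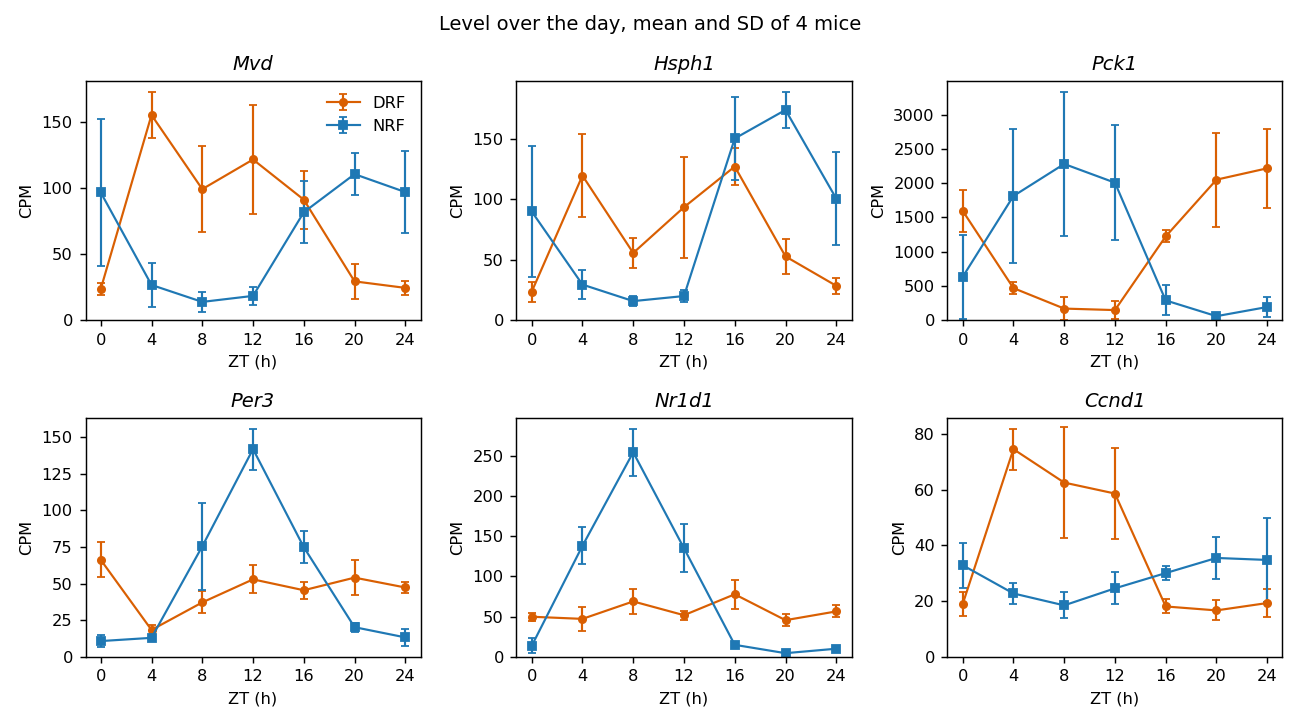
Mean CPM and SD of 4 mice at 7 time points (ZT in h) under DRF (orange) and NRF (blue) for 6 genes. Mvd and Hsph1 rise at ZT4 under DRF and at ZT16 under NRF, Ccnd1 rises from ZT0 to ZT4 under DRF and is at 24.6 and 30.1 CPM at ZT12 and ZT16 under NRF, and Nr1d1 stays between 45.5 and 77.8 CPM under DRF while it spans 4.48 to 254 CPM under NRF.

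The first 4 h with food at night, NRF ZT12 to ZT16, share no library with the day comparison. There 1132 genes rose and 1056 fell, 14.2% of those tested. Of the genes called by day, 3818 of 4706 had the same sign at night, 1276 were called the same way and 16 the opposite way. The share with the same sign over all tested genes was not computed, so the 3818 have no baseline here. The difference between the onsets passed the interaction test for 145 genes, 0.94% of those tested, 86 higher and 59 lower by day, and for 15 and 10 without DRF ZT0 replicate 4. This count moved with almost any single library, from 15 to 273 higher and from 10 to 212 lower, and a gene that did not pass is not shown to respond alike.

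The day and night values of named genes and list medians stand side by side here. Hsph1 differed by 2.31 by day and 2.85 by night, Osgin1 by 2.28 and 2.74, Ppp1r3b by 2.64 and 3.43, Mvd by 2.68 and 2.11 and Irs2 by -1.76 and -1.24. The median of the cholesterol list was 1.04 by day and 0.69 by night, that of the heat and cold shock list 0.55 and 1.1, that of the ribosome list 0.51 and 0.39, and that of triglyceride synthesis 0.58 and 0.01. The interaction passed by limma for 0 members of the cholesterol, lipogenesis and heat and cold shock lists (3, 0 and 4 at an unadjusted p under 0.05), 1 of triglyceride synthesis, 2 of ribosome biogenesis and of the immediate early genes, and 4 of the 19 clock genes. Without DRF ZT0 replicate 4 the 4 clock genes passed still and none of the other genes just counted did. It passed for 0 of the fatty acid oxidation, branched-chain amino acid and glucocorticoid lists, with 10 of 18, 8 of 18 and 7 of 15 at an unadjusted p under 0.05, and 11 of the 21 immediate early genes were under it. Of all 15425 tested genes, 2921 were under it. The medians by day and by night had opposite signs for 11 of the 22 lists, among them NADPH supply (0.50 and -0.04), glucose use (0.39 and -0.08), immediate early genes (-0.23 and 0.22), fatty acid oxidation (0.21 and -0.27) and brown-fat genes (0.25 and -0.63). These day medians moved with the starting group. Against ZT24 they were 0.19 for NADPH supply, 0.16 for glucose use, 0.55 for immediate early genes, 0.06 for fatty acid oxidation and -0.09 for brown-fat genes. That of fatty acid oxidation was 0.11 without DRF ZT0 replicate 4. The count of opposite signs is smaller in both settings. The clock, lipoprotein lipase and interferon lists took the sign of the night in both. Immediate early, brown-fat and inflammatory genes did so against ZT24 only, and proliferation genes without that replicate only.

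**Figure D5:**
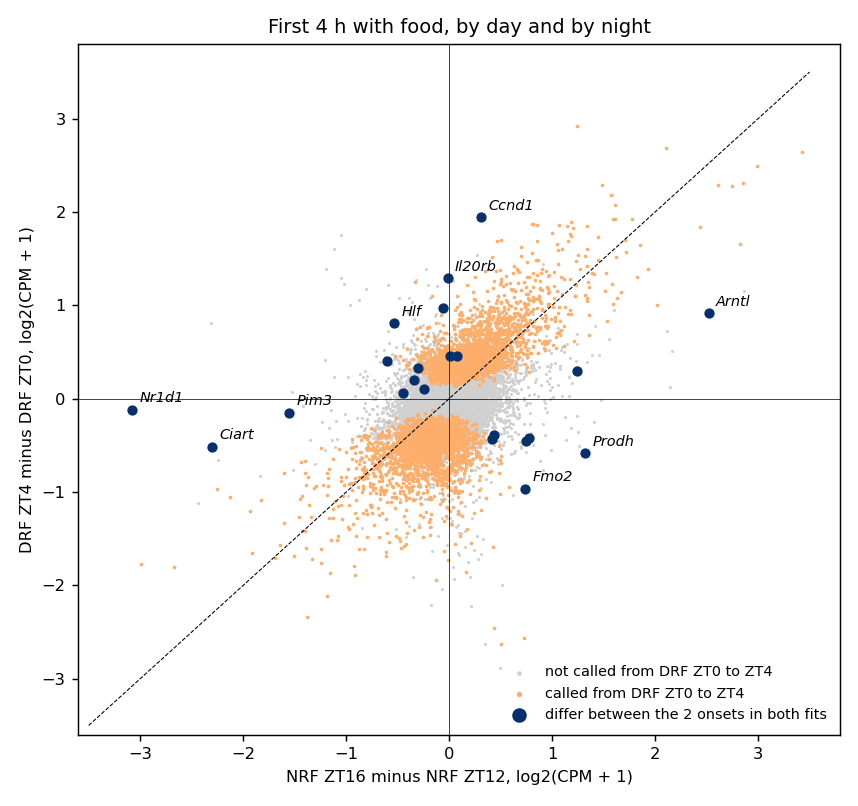
Change over the first 4 h with food by night (horizontal, NRF ZT16 minus ZT12) and by day (vertical, DRF ZT4 minus ZT0) for the tested genes, on the log2(CPM + 1) scale; the dashed line marks equal change and dark points the 22 genes whose changes differed with and without DRF ZT0 replicate 4. Nr1d1 lies far left of the line at -3.08 by night and -0.12 by day, and Ccnd1 above it at 0.31 and 1.95.

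In 22 genes the onsets differed both with all libraries and without DRF ZT0 replicate 4; they were named because of this difference, so their values are a description. Nr1d1 differed most. It fell from 135 ± 30.1 to 14.9 ± 2.08 CPM (SD, n = 4) over the first 4 h of night feeding and was at 49.8 ± 5.25 and 47.2 ± 14.8 CPM by day, a difference between the onsets of 2.96 (limma adjusted p = 9.8e-08). Arntl rose by 0.91 by day and by 2.52 at night, where it started from 0.69 ± 0.11 CPM. Ciart, a repressor that acts on the clock's activators, fell by 2.30 at night from 12.4 ± 2.1 CPM and was at most 3.69 CPM in any of the 8 day-fed libraries. Hlf rose by 0.81 by day and fell by 0.54 at night.

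Outside the clock list, Ccnd1 rose 3.95-fold by day and was at 24.6 ± 5.79 and 30.1 ± 2.46 CPM at the start and after 4 h at night (0.31, limma adjusted p = 0.45). Dip2c was at 26.3 to 31.9 CPM and then 48.6 to 62.1 CPM by day, and at -0.06 at night. Fmo2, a flavin monooxygenase, fell by 0.96 by day and rose by 0.74 at night. Pim3, a kinase, was at -0.15 by day and fell by 1.55 at night, and Sphk2, a sphingosine kinase, rose by 0.30 by day and by 1.24 at night. Nr1d1, Arntl, Ciart, Hlf and these 5 genes kept their call of a difference in all 19 settings tried for it, as did Star, Vps8, Fam49a and 3110056K07Rik.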

How the data were processed

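Visceral fat was sequenced from 56 mice (poly(A) libraries of a kit that does not mark strand, read as paired ends), and the authors used HISAT2 2.0.5, featureCounts 1.5.0-p3 and the mm10 genome per the labels. The deposited values are named TPM but are treated here as a score: each, multiplied by the exon length of its gene, equals a library constant times log2(1 + reads / library size). Of 25939 genes, 25048 were inverted with an annotated (GENCODE) exon length, 871 with a length fitted so that their reads came out whole, and 15 were too abundant for that check; of 1262023 values of at most 10000 reads, 99.997% were whole within 0.02 reads. The depth was 30912842 to 40874505 recovered reads per library. For 5 abundant genes (Cdo1, Pcx, Fth1, Scd1 and Scd2) no reads could be given.

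Genes with at least 1 CPM in at least 4 of the 56 libraries were tested on log2(CPM + 1) with limma 3.58.1 (lmFit, contrasts.fit, eBayes with trend; R 4.3.3), with 14 groups and Benjamini-Hochberg adjustment. The script was tested on simulated data. Groups came from the labels, which do not say that mice were separately housed, so p-values measure the spread between these samples. Differences from the NRF changes were interaction contrasts of the same fit. The named genes were the 15 largest rises and 15 largest falls among genes called with and without DRF ZT0 replicate 4, with a mean of at least 5 CPM, no overlap of the groups and an established symbol, plus up to 4 called members and the first 2 members of each gene list. A few of these genes are not reported here. Members and lists were chosen with earlier results of these data known. Alternatives covered the pseudocount, the filter, the scaling, the libraries in the fit, weights, the replicate block, the starting group and each library left out. Genes that overlap on opposite strands, and near-identical copies, cannot be separated in these counts.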

Additional observations from a re-analysis of the deposited data

Results flagged for a closer look

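Among the 8 libraries, 322 groups of 4 values (the named genes and the marker sums, on the log2(CPM + 1) scale) were searched for a mouse whose gap to its nearest neighbour exceeded Dixon's 95% limit as a share of the group's range, which chance passes in about 1 of 20 groups. It was passed in 30 groups, 9.32%, and 16 of these were DRF ZT0 replicate 4.

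In that mouse the uterine epithelium sum was 7655.5 CPM and the liver marker sum 19 CPM. It was the highest of its group for Lcn2 (2666.3 CPM), Cebpd (82.5 CPM), Nfkbia (108 CPM, an inhibitor of NF-kappa B), Slc2a1 (46.8 CPM, the glucose transporter GLUT1), Slc14a1 (28.7 CPM), Celsr2 (60.7 CPM) and Dip2c (31.9 CPM). It was the lowest for the lipid genes Lpl (5827.4 CPM), Pnpla2 (1950.9 CPM), Lipe (905 CPM) and Cpt2 (129 CPM, against 188 to 200 CPM in the other ZT0 mice), for Sqle (16 CPM) and for the amino acid response genes Asns (52.8 CPM) and Atf5 (68.8 CPM). Lipe was called as lower at ZT4 without this mouse and Asns was no longer called; the part of other tissue in these values was not tested.

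Elsewhere at ZT0, replicate 3 was lowest for Heatr1 (10.7 CPM) and 3110056K07Rik (4.29 CPM), and replicate 2 highest for Nop2 (21 CPM). At ZT4, replicate 2 was apart for Atf4 (161 CPM, lowest), Cpt1a (55.3 CPM, highest), Slc14a1 (2.41 CPM, highest) and Star (10.9 CPM, highest). Replicate 4 of ZT4 was highest for Hspa5 (683 CPM) and lowest for Irf7 (14.4 CPM) and Top2a (8.46 CPM against 19.9 to 22.2 CPM). Replicate 3 of ZT4 was lowest for Ucp1 (1.25 CPM against 6.34 to 8.12 CPM) and Fam49a (21.4 CPM) and highest for Smarcb1 (56.4 CPM), and replicate 1 highest for Ciart (1.41 CPM).

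Changes that differed between groups by the interaction term numbered 4586 genes against the same clock hours under NRF and 145 genes against feeding onset at night. Of the 22 genes that passed the latter with and without DRF ZT0 replicate 4, the day change was below the night change for Prodh (-1.91), Fmo2 (-1.70), Arntl (-1.61), Popdc2 (-1.20), Col28a1 (-1.20), Sphk2 (-0.94), Fam49a (-0.85) and 3110056K07Rik (-0.82). It was above the night change for Nr1d1 (2.96), Ciart (1.79), Ccnd1 (1.64), Pim3 (1.40), Hlf (1.35), Il20rb (1.31), Dip2c (1.03), Star (1.01), Parp1 (0.62), Vps8 (0.54), Khdrbs1 (0.51), Smarcb1 (0.44), Arhgap1 (0.38) and Hnrnpul1 (0.34). Under the 19 other settings the call of a difference was kept in 11 for Arhgap1, 7 for Col28a1, 5 for Hnrnpul1, 6 for Khdrbs1 and Popdc2, 17 for Prodh and Smarcb1, and 18 for Il20rb and Parp1.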

How the results depend on the processing

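The counts of 2594 higher and 2112 lower genes from DRF ZT0 to ZT4 moved most with the scale and the threshold. They were 1235 and 3099 with the total of recovered reads as library size, 1214 and 2958 with voom weights, 4357 and 1414 on the deposited values as they stand, 1696 and 1214 with the 8 libraries alone, 171 and 158 at an absolute difference of at least 1, and 1443 and 1092 at an adjusted p under 0.01. Leaving out 1 library gave 1785 to 2859 higher and 1482 to 2285 lower. The other settings stayed within 1.5 times in both directions: pseudocounts of 0.25 and 4, no filter, a mean of at least 5 CPM, median-of-ratios and quantile scaling, the 28 DRF libraries, array weights, the robust fit, and ZT24 in place of or together with ZT0.

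Against the same clock hours under NRF the counts were 1515 and 3100 with total recovered reads, and 2165 to 2896 and 1623 to 2202 with 1 library left out. Against feeding onset at night, 86 higher and 59 lower became 35 and 94 with total recovered reads, 45 and 25 without a filter, and 15 to 273 and 10 to 212 with 1 library left out, the highest without DRF ZT0 replicate 3 and the lowest without its replicate 4. With ZT24 as the start, 4 of the named genes that fell turned: Apold1 (0.24), Egr3 (0.46), Ier3 (0.55) and Nr4a1 (0.97), none of them called there; the cause was not tested. Of the 30 named rises and falls, 25 kept their call and direction in each of the 24 settings (23 for Spry3). Apold1, Coro2a, Slc14a1 and Pck1 are among those that did not. The setting without DRF ZT0 replicate 4 was passed by all 30 because their choice required it.

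Replicate numbers were shared between groups, but same-numbered ZT0 and ZT4 mice did not deviate together (correlations of 0.04, -0.08, 0.25 and -0.14 across genes), so the numbers were not taken as pairs. With the replicate block the counts were 2741 and 2232 for the change under DRF, 2727 and 2095 against the same clock hours, 185 and 151 against night onset, 1211 and 1110 for NRF ZT12 to ZT16, and 63 and 116 for NRF ZT0 to ZT4. Against night onset the counts without the block were 86 and 59, so these moved with it, and the reason was not tested.

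Limits remain. The reads come from an inversion of deposited values whose making is not stated in the sources used here, and 5 abundant genes lie outside it. Each group holds 4 mice of a single experiment. Reads limit genes near the 1 CPM filter most, where the added 1 shrinks their differences.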
